A study of Mus musculus with 6 samples.

Results

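RAS GTPase-activating proteins (RAS GAPs) were examined together with the SPRED proteins in arrays of mouse acute lymphoblastic leukaemia driven by BCR-ABL1. The members were chosen by gene symbol: Rasal1, Rasal2, Rasal3, Rasa1, Rasa2, Rasa3, Rasa4, Nf1, Spred1 and Spred2. All 10 genes were on the array, with 30 of its 45037 probe sets annotated to exactly 1 of them. The array holds 18193 named genes in all. The groups were 3 arrays of AID-/- leukaemia, which lacks activation-induced cytidine deaminase (AID), the antibody gene mutator, and 3 arrays of AID+/+ leukaemia, in which it is intact. All 6 are labelled Balb/c, and the series title places them in a BCR-ABL1 model. The labels give no age, sex, growth or treatment for the cells, nor whether a replicate is 1 animal, a pool or a culture. P-values therefore measure only the spread between these arrays.

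RAS is a membrane switch that is on when bound to GTP and off when bound to GDP. Exchange factors load it with GTP, and GAPs speed its own slow hydrolysis of GTP and so switch it off. Neurofibromin, the product of Nf1, is such a GAP, and SPRED proteins bring it to the membrane. The fusion kinase BCR-ABL1, which arises from the Philadelphia chromosome, reaches RAS through GRB2, SOS and GAB2, and RAS then signals through RAF, MEK and ERK. Loss of NF1 and mutations that keep RAS on recur in human leukaemia.

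Values are RMA expression values on the log2 scale, so that a difference of 1 is a 2-fold difference. Differences are AID-/- minus AID+/+ with the standard error (SE) from a limma fit over all 45037 probe sets. A probe set was called at an adjusted p under 0.05. The family was put together with results of this contrast already known, so the differences and adjusted p-values of its members are a description of the fit, and nothing rests on them. In these bulk samples, fewer cells of a type and less RNA per cell cannot be told apart.

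Arrays of 1 group resembled each other more than arrays of different groups, with Pearson's r over probe sets of 0.991 to 0.996 within groups and 0.972 to 0.977 between them. The 6 measured B-lineage marker genes lay between 6.77, at Pax5, and 13.24 on all arrays, and 0 of them passed in limma, also at an unadjusted p under 0.05. Of 19 measured markers of T, NK, myeloid, erythroid, stromal and endothelial cells, the highest value was 7.36, at Pecam1, and 2 passed: Klrd1 was lower and Lyz2 higher in AID-/- arrays. Lyz2, a myeloid lysozyme, lay at 5.69 to 6.46 in AID-/- and 4.96 to 5.49 in AID+/+ arrays. The summed log2 level of the 5 measured myeloid markers was 22.9 to 24.0 in AID-/- and 21.9 to 23.5 in AID+/+ arrays. That of the 2 NK markers was 6.5 to 7.0 and 7.7 to 7.9. These 2 lay between 2.87 and 4.16 on all arrays, toward the bottom of the scale. The part of either in the results below was not tested. AID itself was not analysed here, so the genotype labels were not checked by the targeted gene. Xist was at 3.44 in AID-/- and 12.12 in AID+/+ arrays, and the Y-linked gene Kdm5d at 7.66 and 2.58, at their most different probe sets. Sex and genotype therefore cannot be told apart in any comparison here.

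Across the family, 12 of the 30 probe sets were called, 3 higher and 9 lower in AID-/- leukaemia. Over all probe sets 14.6% were called, 7.24% higher and 7.39% lower. The higher calls were at Rasal2 and Rasa3. The lower ones were at Spred1, Rasal1, Nf1 and Rasa1. The groups did not overlap at 15 of the 30 probe sets, against 32.9% of all probe sets. At the brightest probe set of each gene they did not overlap for 6 of 10, against 36.5% of all genes. The median difference was -0.18, against -0.04 over the array. Without limma's moderation of the variances, 3 member calls remained: both of Rasal2 and 1423162_s_at of Spred1. No member lies on a sex chromosome in RefSeq.

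**Figure D1:**
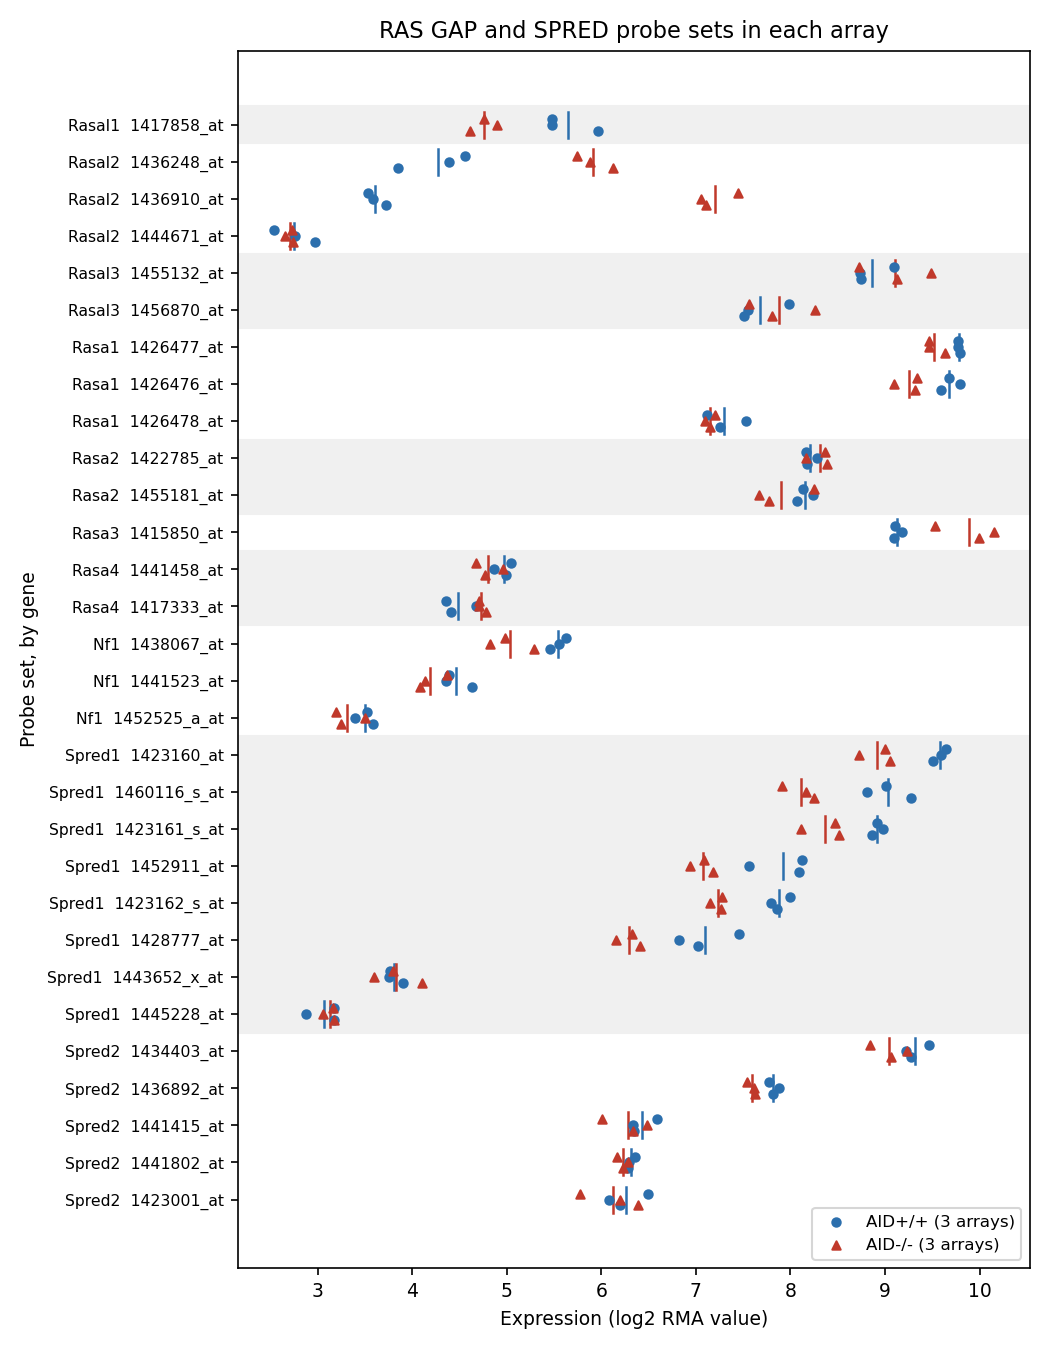
Log2 RMA value (horizontal axis) of each of the 30 probe sets (rows, grouped by gene) in each of the 6 arrays; triangles are AID-/- arrays, circles AID+/+ arrays, and vertical ticks the group means. The groups are widest apart at the Rasal2 probe set 1436910_at, where AID-/- arrays lie at 7.05 to 7.45 and AID+/+ arrays at 3.53 to 3.72, and 6 of the 8 Spred1 probe sets show all AID-/- arrays to the left of all AID+/+ arrays.

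Rasal2, a RAS GAP of the SynGAP branch, showed the largest difference of the family and was higher in AID-/- leukaemia. At the probe set 1436910_at the AID-/- arrays read 7.45, 7.05 and 7.11, and the AID+/+ arrays read 3.53, 3.59 and 3.72. All 3 AID-/- arrays were thus high, and the AID+/+ arrays lay near the lower end of the scale. The difference was 3.59 (SE 0.12; 95% confidence interval 3.31 to 3.88), or 12.1-fold, with a limma adjusted p of 1.25e-06. Because the lower group is near the floor of the scale, that fold is approximate.

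A second Rasal2 probe set, 1436248_at, moved the same way by less. It read 5.74, 5.88 and 6.12 in AID-/- arrays and 4.56, 4.39 and 3.85 in AID+/+ arrays. The groups did not overlap, and the lowest value was that of AID+/+ replicate 3. The difference was 1.65 (SE 0.19), or 3.13-fold (limma adjusted p = 0.00086). The third, 1444671_at, lay at 2.54 to 2.97 on all 6 arrays, at the bottom of the scale, and differed by -0.04 (SE 0.12). Rasal2 was therefore read as higher by 2 of its 3 probe sets, by unequal amounts, and not by the one that showed no signal above the floor. Both calls stayed with any 1 array left out, with adjusted p of at most 3.48e-05 and 0.00457.

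The Rasal2 start region is shown because the gene next to it moved with it. RefSeq (GRCm38.p6) lists the long non-coding RNA gene 2810025M15Rik beside Rasal2 on chromosome 1. The annotated spans of both genes share 244 bases at the Rasal2 start. The 250 bases before that start, at chr1:157412596-157412845 on the minus strand, lie wholly inside the span of 2810025M15Rik. They are given 5′ to 3′ along Rasal2, with each CpG dinucleotide in capitals.
Rasal2 upstream window: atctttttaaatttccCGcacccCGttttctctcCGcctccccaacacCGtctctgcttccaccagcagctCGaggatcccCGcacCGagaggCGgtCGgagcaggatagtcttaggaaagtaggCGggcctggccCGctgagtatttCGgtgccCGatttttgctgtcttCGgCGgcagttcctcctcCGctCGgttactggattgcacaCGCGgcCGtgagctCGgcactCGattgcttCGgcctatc
The window holds 23 CpG dinucleotides and a GC content of 59.6%. Over 32851 RefSeq windows of the same length the medians were 6 CpG and 52.4%, and 13.3% of windows held at least as many CpG. Among the 9 members with a window, CpG counts ran from 6 at Rasal3 to 31 at Spred1.

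The 1 probe set of 2810025M15Rik read 8.56, 7.84 and 8.14 in AID-/- arrays and 4.92, 4.71 and 4.80 in AID+/+ arrays. Its groups did not overlap, and AID-/- replicate 1 was the highest array for both. Fitted over 1 probe set per gene, it was higher by 3.37 (SE 0.17; limma adjusted p = 1.53e-05 over 18193 genes). Among 10779 genes with a mean above the array median, the profile over the 6 arrays nearest to that of 1436910_at was that of Eps8, a regulator of actin and receptor signalling. Its root mean square distance after centring each profile was 0.15 log2 units (Pearson's r = 0.998). 2810025M15Rik came next at 0.17 (r = 0.997), followed by Rufy1, an endosomal protein gene, at 0.18 (r = 0.996). These values rest on 6 arrays in 2 groups and describe mainly the step between the groups. Whether the probe set of 2810025M15Rik also reads transcripts of Rasal2 was not tested.

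Further from Rasal2, Ralgps2, which encodes an exchange factor for the RAS relative RAL, was higher at all 3 of its probe sets. They differed by 1.18 (SE 0.26), 1.14 (SE 0.17) and 1.63 (SE 0.28), and all were called. Its gene-level call failed when either AID-/- replicate 3 or AID+/+ replicate 3 was left out (limma adjusted p up to 0.0762). Of the 5 measured genes on each side of Rasal2, 3 were higher, 1 was lower and 6 did not pass. Tex35, the nearest on the side of the Rasal2 3′ end, differed by -0.01 (SE 0.10).

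Rasal3, the SynGAP-branch GAP of blood cells, did not pass. Its brighter probe set read 8.73, 9.49 and 9.13 in AID-/- arrays and 9.10, 8.74 and 8.75 in AID+/+ arrays. The groups overlapped, and at both probe sets AID-/- replicate 2 was the highest of all arrays and replicate 1 the lowest AID-/- array. The differences were 0.25 (95% confidence interval -0.18 to 0.69) and 0.19 (-0.25 to 0.64).

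**Figure D2:**
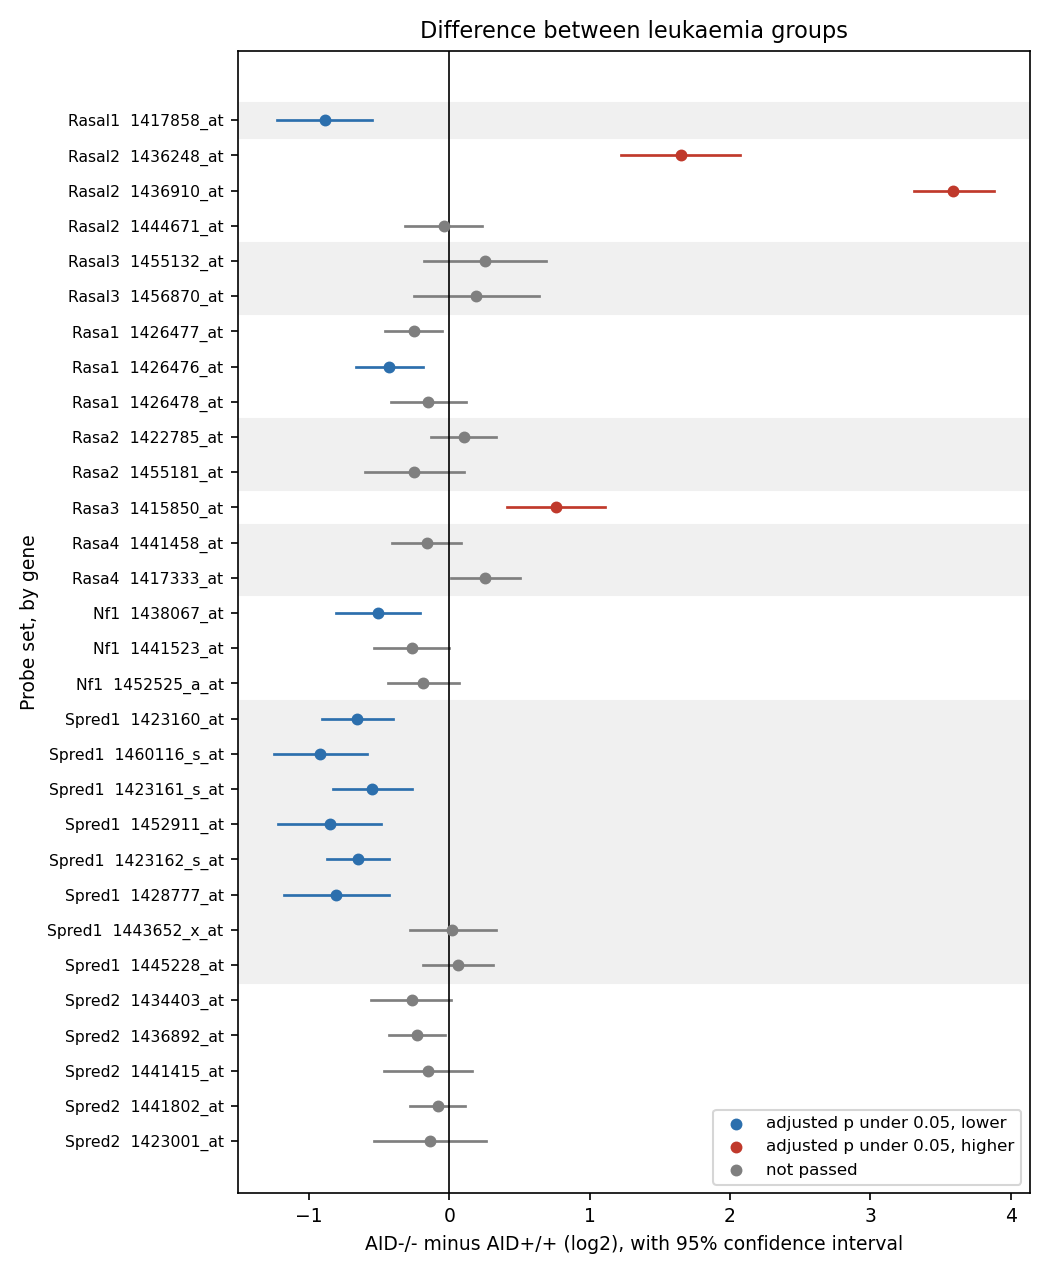
Difference between groups (AID-/- minus AID+/+, log2, horizontal axis) of each of the 30 probe sets with its 95% confidence interval from the limma fit; red marks probe sets called higher, blue called lower and grey not passed. Rasal2 stands at 3.59 and 1.65, Rasa3 at 0.76, and the called Spred1 probe sets between -0.92 and -0.55.

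The GAP1 branch, whose members carry C2 domains, moved in both directions. Rasa3, a GAP for RAS and RAP1 that binds inositol phosphates, was higher in AID-/- leukaemia at its 1 probe set. The AID-/- arrays read 9.53, 10.15 and 9.99 and the AID+/+ arrays 9.11, 9.18 and 9.10. The AID+/+ arrays lay within 0.1 of each other, and AID-/- replicate 1 was the nearest to them. The difference was 0.76 (SE 0.15), or 1.69-fold (limma adjusted p = 0.0125). It narrowly failed without AID+/+ replicate 3 (adjusted p = 0.0508).

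Rasal1, a calcium-responsive GAP, was lower at its 1 probe set. It read 4.76, 4.9 and 4.61 in AID-/- arrays and 5.48, 5.48 and 5.97 in AID+/+ arrays, which is near the array medians of 4.85 to 4.9. The groups did not overlap. The difference was -0.89 (SE 0.15), or 1.85-fold (limma adjusted p = 0.00566), and the call stayed with any 1 array left out (adjusted p up to 0.0245).

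Rasa2 and Rasa4, the other GAP1 genes, did not pass, and the probe sets of each differed in sign. Those of Rasa2 differed by 0.10 (95% confidence interval -0.13 to 0.33) and -0.25 (-0.60 to 0.10). At the second of them, 1455181_at, AID-/- replicate 1 read 8.25 against 7.67 and 7.77 in the other AID-/- arrays, and 8.13, 8.24 and 8.07 in AID+/+ arrays. Without that array the difference was -0.42 and passed (limma adjusted p = 0.0363). The probe sets of Rasa4, a calcium-dependent GAP also called CAPRI, differed by -0.16 (-0.41 to 0.08) and 0.25 (0.01 to 0.50), at levels of 4.36 to 5.04. The groups did not overlap at the second of these.

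Rasa2 itself did not pass, while 6 of its 10 nearest measured genes on chromosome 9 did, 5 of them higher. Spsb4, which encodes a substrate adaptor of a ubiquitin ligase, was higher by 3.39 (SE 0.16), and by 4.17 (SE 0.23) at its other probe set. Pxylp1, a xylose phosphatase gene of proteoglycan synthesis, had a brightest probe set that was higher by 3.09 (SE 0.15). Another was higher by 4.95, and the last, near the floor, differed by -0.15. Zbtb38, the immediate neighbour and a methyl-DNA-binding repressor gene, was higher by 1.11 (SE 0.14), with -0.19 and 1.40 at its dimmer probe sets. Their gene-level limma adjusted p were 1.04e-05, 1.17e-05 and 0.00174.

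Across all members, 23 of the 100 neighbouring genes were called, 12 higher and 11 lower, against 18.5% of all genes. With 1 array left out the count was 18 to 23. The neighbours of the other 8 members that follow were likewise named after their values were seen. Meis2, a homeobox gene near Spred1, was lower (-2.89, SE 0.16; -1.69 over the mean of its probe sets). Slc1a4, an amino acid transporter gene near Spred2, was lower (-1.97, SE 0.22), and so was Cyp4f16 near Rasal3 (-1.75, SE 0.24). Among those called higher, the largest difference was at Coprs near Rasa3 (1.09, SE 0.11). Of the 10 neighbours of Rasa1, 0 were called by limma, and 3 had an unadjusted p under 0.05.

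**Figure D3:**
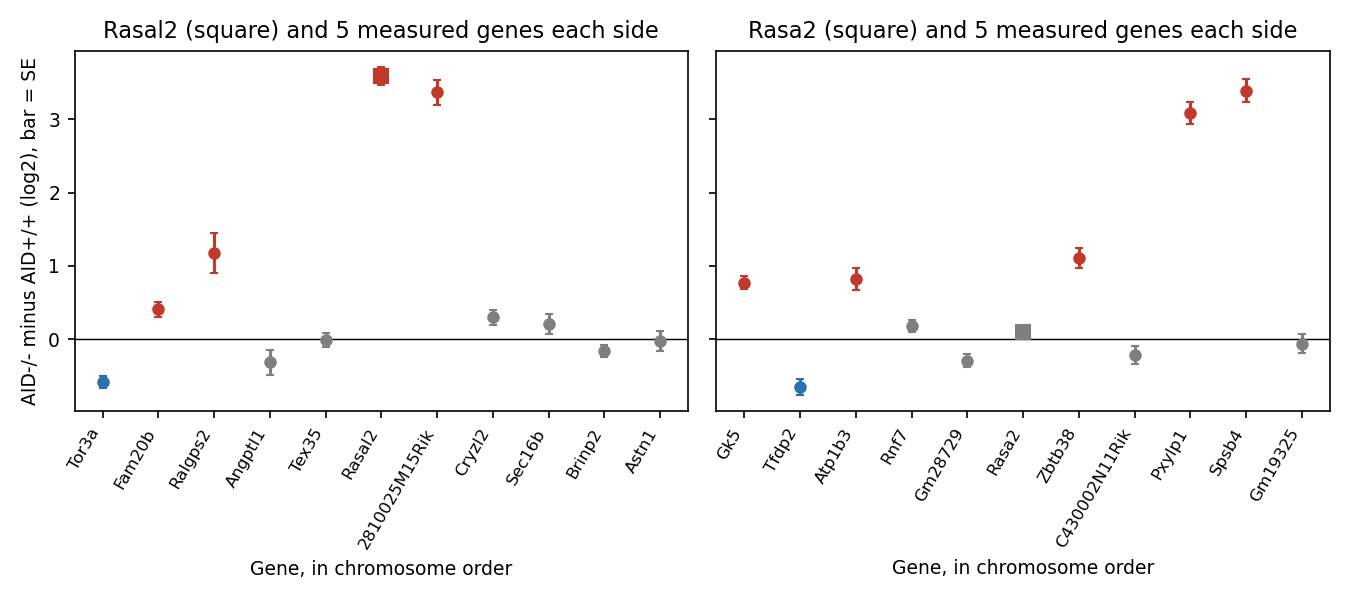
Difference between groups (AID-/- minus AID+/+, log2, vertical axis; bars are the SE) of Rasal2 (left) and Rasa2 (right), drawn as squares, and of the 5 measured genes on each side in chromosome order; red is called higher, blue called lower, grey not passed. 2810025M15Rik stands at 3.37 beside Rasal2 at 3.59, while Rasa2 lies at 0.10 with Pxylp1 at 3.09 and Spsb4 at 3.39 nearby.

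Rasa1 encodes p120 RAS GAP, which docks onto phosphorylated receptors through SH2 domains. All 3 of its probe sets were lower on average in AID-/- arrays, and 1 was called. That one, 1426476_at, read 9.34, 9.10 and 9.32 in AID-/- arrays and 9.68, 9.79 and 9.59 in AID+/+ arrays. The groups did not overlap, and the difference was -0.43 (SE 0.11; limma adjusted p = 0.028). It passed in 1 of 6 fits with an array left out, the one without AID-/- replicate 1, and in the rest had adjusted p as high as 0.0965. The brightest probe set, 1426477_at, also did not overlap, with a difference of -0.25 (SE 0.09; adjusted p = 0.104), and the third differed by -0.15 (SE 0.12).

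Nf1, the neurofibromin gene, was lower at 1 of 3 probe sets. At 1438067_at the AID-/- arrays read 4.98, 4.82 and 5.29 and the AID+/+ arrays 5.63, 5.55 and 5.46. The highest AID-/- array, replicate 3, came within 0.2 of the lowest AID+/+ array. The difference was -0.51 (SE 0.13; limma adjusted p = 0.0333), and it passed without AID-/- replicate 3 but with none of the other arrays left out (adjusted p as high as 0.106). The remaining probe sets differed by -0.27 and -0.19 at levels of 3.19 to 4.63, and were not called.

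Spred1, the adaptor that recruits neurofibromin to RAS at the membrane, was lower in AID-/- leukaemia at 6 of its 8 probe sets. At the brightest, 1423160_at, AID-/- arrays read 9.0, 8.72 and 9.05 and AID+/+ arrays read 9.64, 9.59 and 9.51. AID-/- replicate 2 was the lowest array here and at 4 more of the 6 called probe sets. The difference was -0.66 (SE 0.11), or 1.58-fold (limma adjusted p = 0.0058).

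The largest Spred1 difference, -0.92 (SE 0.14; limma adjusted p = 0.00381), was at 1460116_s_at. It read 7.91, 8.16 and 8.25 in AID-/- arrays and 9.01, 8.81 and 9.27 in AID+/+ arrays. The groups were apart at each of the 6 called probe sets, which differed by -0.92 to -0.55. The other 2 lay between 2.88 and 4.10 on all arrays, toward the bottom of the scale, and differed by 0.02 and 0.06. Averaged over all 8 probe sets, Spred1 differed by -0.54 (SE 0.10).

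These probe sets are not independent readings of Spred1. Of the 6 called, 3 were designed on 1 source sequence, with differences of -0.66 to -0.55, and 2 on another, with -0.85 and -0.81. The sixth, 1460116_s_at, shares its source with 1443652_x_at, which showed no difference (0.02, SE 0.13) at a level of 3.60 to 4.10. Of the 6 calls, 5 stayed with any 1 array left out (limma adjusted p up to 0.041). That of 1423161_s_at was lost without any single AID+/+ array (up to 0.0689).

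The genes whose profiles lay nearest to 1460116_s_at were Aldh18a1, an enzyme of proline synthesis, Atf3, a stress-induced transcription factor gene, and Slc3a2, which encodes the heavy chain of the large amino acid transporter. Their root mean square distances were 0.08, 0.08 and 0.09 log2 units (Pearson's r = 0.988, 0.992 and 0.986 over 6 arrays). Their differences were -0.87, -0.81 and -1.03. As they were chosen for nearness to a profile that is lower in AID-/- arrays, this direction follows from the choice.

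Spred2, its close relative, was slightly lower on average at all 5 probe sets, and limma called 0 of them (1 at an unadjusted p under 0.05). The brightest read 8.84, 9.23 and 9.06 in AID-/- arrays and 9.46, 9.22 and 9.28 in AID+/+ arrays, which overlapped. Its difference was -0.27 (95% confidence interval -0.56 to 0.01). At 1436892_at the groups did not overlap, with 7.54 to 7.62 against 7.77 to 7.88, a difference of -0.23 (SE 0.09; limma adjusted p = 0.122). Whether Spred1 and Spred2 differ in their change was not tested.

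The rest of the RAS pathway was read from 7 lists of genes that are not members, each represented by its brightest probe set, with adjusted p over 18193 genes. Of 108 listed genes, 98 were measured and the others were not analysed here. Together they gave 14 higher, 13 lower and 71 genes that missed the threshold, so that 27.6% were called, against 18.5% of all genes (10.1% higher and 8.42% lower). Without AID+/+ replicate 3, 9 were higher and 7 lower, or 16.3%, against 11.8% of all genes. Without AID+/+ replicate 1, 8 were lower.

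Among other GAP-domain genes and partners of GAPs and SPREDs, 2 of 17 were higher, 2 lower and 13 neither (median difference 0.08). Dab2ip, another RAS GAP of the SynGAP branch, read 8.10, 7.43 and 7.32 in AID-/- arrays and 4.97, 5.02 and 5.37 in AID+/+ arrays. All AID-/- arrays were higher, by 2.50 on average (SE 0.21), or 5.64-fold (limma adjusted p = 0.000213). Its other probe set differed by 0.10 (adjusted p = 0.839), and the mean of both by 1.3 (adjusted p = 0.00478). Iqgap2, a scaffold with a GAP-related domain, was higher by 1.74 (SE 0.20; adjusted p = 0.00101), and by 1.67 at its other probe set. Iqgap3 was lower (-0.72, SE 0.15; adjusted p = 0.0147), but its other probe set, at -0.27, did not pass. Sipa1l1, a GAP for RAP, was lower (-0.63, SE 0.14; adjusted p = 0.0193) and was called at 2 of its 4 probe sets. Sipa1l1 failed when AID-/- replicate 3, AID+/+ replicate 1 or AID+/+ replicate 3 was left out (up to 0.0652).

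Among the RAS and RAP GTPases themselves, 2 of 12 were higher, 2 lower and 8 neither (median -0.15). Nras was higher by 0.33 (SE 0.09; limma adjusted p = 0.0332). It read 10.32, 10.47 and 10.43 in AID-/- arrays and 10.10, 10.02 and 10.12 in AID+/+ arrays. Its groups did not overlap, and its other probe sets differed by 0.34, not passing, and by 0.82, which was called. The call at the brightest probe set held in 1 of 6 fits with an array left out, the one without AID-/- replicate 1 (up to 0.106). With probe sets averaged, Nras was higher by 0.5 (limma adjusted p = 0.00401). Rit1, a RAS relative, was higher by 0.49 (SE 0.11), but failed when AID-/- replicate 2, AID+/+ replicate 2 or AID+/+ replicate 3 was left out (up to 0.0777). Its other probe set was called at 0.83, and the mean of both was higher by 0.66 (limma adjusted p = 0.0177). Rras2 was lower (-0.46, SE 0.08; limma adjusted p = 0.00679), but its other probe set, at -0.37, did not pass. Rap2b was lower (-0.68, SE 0.14; limma adjusted p = 0.0137) at 1 of 4 probe sets. With probe sets averaged, Rap2b differed by -0.27 and did not pass (adjusted p = 0.131).

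Exchange factors, which oppose the GAPs, were 2 of 13 higher, 2 lower and 9 not passing (median -0.03). Rasgrp2, which loads RAP1 in response to calcium, was higher at all 4 of its probe sets and by 0.71 (SE 0.14; limma adjusted p = 0.0114) at the brightest. Rapgef2 was higher by 0.76 (SE 0.16; adjusted p = 0.0151) but failed with AID+/+ replicate 3 left out (0.0574). Rasgrf2 was lower (-1.31, SE 0.20; adjusted p = 0.00372) at 1 of 3 probe sets, which averaged to -0.64 (adjusted p = 0.0291). Sos1, the exchange factor bound by GRB2, was lower (-0.52, SE 0.13; adjusted p = 0.0275) at 1 of 5 probe sets. It held when replicate 1 of either group was left out and failed in the other 4 such fits (up to 0.0943), and with probe sets averaged the difference was -0.08 (adjusted p = 0.65).

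The adaptors that connect kinases to RAS had 4 of 12 higher, 1 lower and 7 not passing (median 0.01). Gab1 was higher at all 3 probe sets, by 1.24 (SE 0.17), 3.12 and 0.72, and its relative Gab3 by 1.06 (SE 0.15), while Gab2, the docking protein of BCR-ABL1, was lower (-0.45, SE 0.11). Their limma adjusted p were 0.00223, 0.00222 and 0.0245 at the brightest probe sets. Gab2 held without AID-/- replicate 2 but in none of the other 5 such fits (up to 0.0854). Its other probe sets, at -0.31 and -0.18, did not pass. Grap was higher by 0.65 (SE 0.10; adjusted p = 0.00318). Grb2 was higher by 0.49 (SE 0.08; adjusted p = 0.00566), but its other probe set differed by -0.35, and their mean by 0.07 (adjusted p = 0.82).

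**Figure D4:**
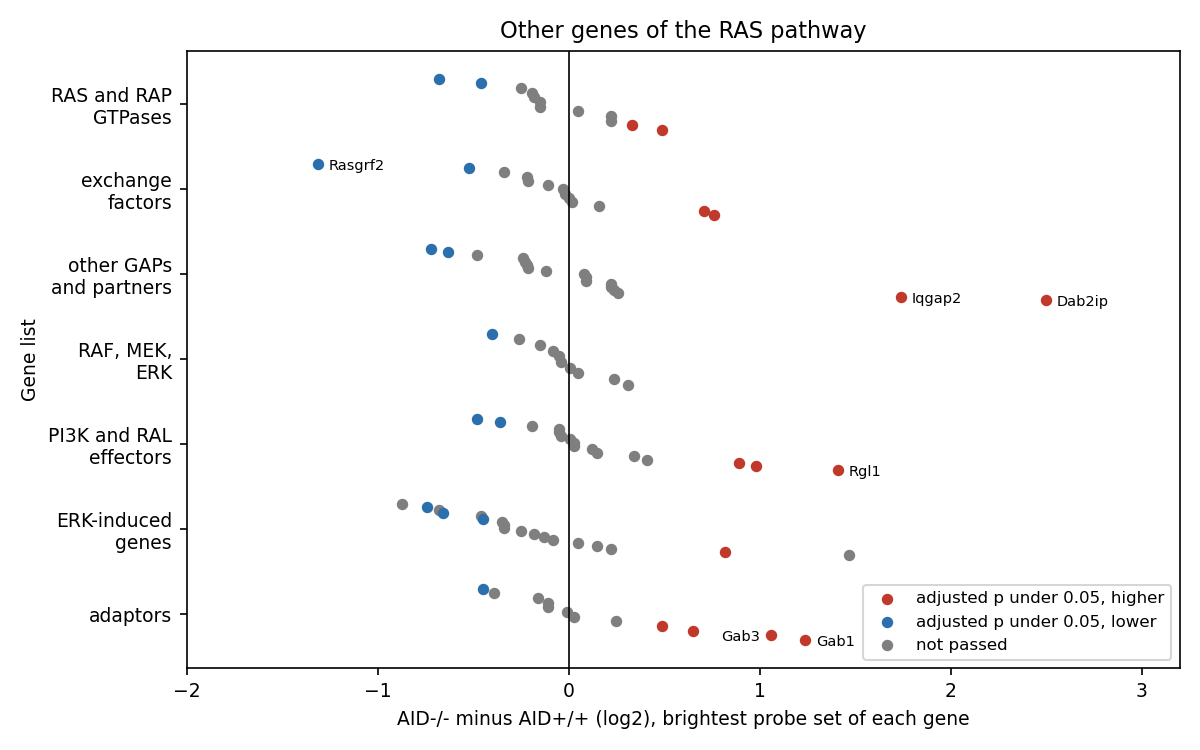
Difference between groups (AID-/- minus AID+/+, log2, horizontal axis) of the 98 measured genes of 7 RAS pathway lists (rows), 1 point per gene at its brightest probe set; red is called higher, blue called lower, grey not passed, and called genes beyond 1 log2 unit are named. Dab2ip at 2.50 and Iqgap2 at 1.74 are the highest points, and most genes lie within 0.5 of 0 in each list.

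Downstream of RAS, the RAF, MEK and ERK kinases with their scaffolds were close between the groups, with 0 of 10 higher in limma (2 at an unadjusted p under 0.05), 1 lower and 9 neither (median -0.04). Map2k1, which encodes MEK1, was lower (-0.40, SE 0.09; limma adjusted p = 0.0181), but failed when AID+/+ replicate 2 or AID+/+ replicate 3 was left out (up to 0.0775). Braf differed by -0.15 (95% confidence interval -0.43 to 0.13), and 0 of its 9 probe sets were called by limma (1 at an unadjusted p under 0.05). The list of PI3K and RAL effectors, which also held Rassf genes, Rin1 and Plce1, had 3 of 16 higher, 2 lower and 11 not passing (median 0.03). Rgl1, a RAS-regulated exchange factor for RAL, was higher by 1.41 (SE 0.08; adjusted p = 2.64e-05), although its other probe set, at 0.76, did not pass. Rassf2 was higher by 0.89 (SE 0.14; adjusted p = 0.00401) and was called at 2 of its 3 probe sets. Pik3cd, the leukocyte PI3K catalytic subunit gene, was higher by 0.98 (SE 0.21; adjusted p = 0.0147). Ralgds was lower (-0.48, SE 0.08; adjusted p = 0.00668) and so was Pik3ca (-0.36, SE 0.09; adjusted p = 0.0262). Pik3cd failed when AID-/- replicate 3, AID+/+ replicate 2 or AID+/+ replicate 3 was left out, with adjusted p up to 0.0599. Of its 6 probe sets 4 were higher, and 2 differed by -0.20 and -0.09 without passing. Their mean was higher by 0.52 (adjusted p = 0.0202). Pik3ca held with AID+/+ replicate 2 left out and failed in the other 5 such fits (up to 0.0784), and its probe sets averaged to -0.23 (adjusted p = 0.0842).

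Genes that ERK signalling induces, several of which inhibit the pathway in turn, had 1 of 18 higher, 3 lower and 14 not passing. Their median difference was -0.30, against -0.03 over all genes, and 22.2% were called, against 18.5% of all genes. Some varied widely within AID-/- arrays, where Fos read 4.66, 5.17 and 7.57 and Egr1 read 7.39, 6.48 and 8.84. These differed by 1.47 (SE 0.66) and -0.87 (SE 0.50), and neither passed. Etv4, an ETS factor gene, was lower (-0.66, SE 0.09; limma adjusted p = 0.00227), and this call stayed with any 1 array left out (up to 0.012). The other Etv4 probe set, at -0.48, did not pass. Spry2, a Sprouty feedback inhibitor gene related to the SPREDs, was lower (-0.74, SE 0.16; adjusted p = 0.0157), but failed when AID+/+ replicate 1 or AID+/+ replicate 2 was left out (up to 0.0627). Its other probe set differed by -0.19 (adjusted p = 0.338), and the mean of both by -0.47 (adjusted p = 0.0442). Dusp6, the ERK phosphatase gene, was lower (-0.45, SE 0.11; adjusted p = 0.0284), and Dusp5, its nuclear counterpart, was higher by 0.82 (SE 0.19; adjusted p = 0.0224). Both calls were lost without any single AID+/+ array, and that of Dusp6 also without AID-/- replicate 1 (up to 0.0927 and 0.0826).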

How the data were processed

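The deposited values are log2 expression values of 6 Affymetrix arrays. They were made with RMA, a background correction, normalisation and probe summary, in Partek software, as far as the submitters' processing notes give tools. Of 45101 probe sets, 64 controls were left out. Symbols came from the platform annotation and were updated by Entrez identifier to RefSeq GRCm38.p6 names for 34741 probe sets. The 2 groups were compared in limma (version 3.58.1, R 4.3.3) by lmFit and eBayes without covariates or an intensity filter. P-values are two-sided and Benjamini-Hochberg adjusted over 45037 probe sets, or over 18193 genes for lists and neighbours. The fit was run on simulated data with independent noise and few changed probe sets. That run checks the code and not the results above. The members, lists and tests were chosen with earlier results of these data known, and the neighbour comparison after these data were seen. Named pathway genes were, per list, up to 5 called genes with the smallest p, plus measured core genes of the pathway; other named genes were chosen after their values were seen. Likeness was the root mean square distance between centred profiles, for the 3 nearest genes. Detection calls and scan dates are not given in the sources used here; the number of arrays limits precision. Proteins were not used here.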

Additional observations from a re-analysis of the deposited data

How the results depend on the processing

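Quantile normalization, median centring, array weights, an intensity trend and a filter on dim probe sets kept every call on members at its side of the threshold. With each variance estimated alone, limma's fit called 3 member probe sets, 2 higher and 1 lower, and 12 list genes, 8 higher and 4 lower, where 5.25% of all probe sets and 8.99% of all genes were called. At an adjusted p under 0.01, 7 member probe sets passed, 5 of them lower, and 12 list genes, 8 higher and 4 lower, against 7.22% of all probe sets and 9.65% of all genes. With 1 probe set per member gene, 5 of 10 genes were called, 3 of them lower, against 18.5% of all genes. With 1 array left out, 8 to 12 member probe sets were called, 2 to 3 higher and 6 to 9 lower, and 16 to 26 list genes, 9 to 14 higher and 7 to 12 lower, where 9.56% to 13.6% of all probe sets and 11.8% to 17.7% of all genes were called, both shares being lowest without AID+/+ replicate 3 and highest without AID-/- replicate 1. Some differences near 0, none of them called, changed sign when an array was left out: Spred2 1423001_at ran from -0.27 to 0.04, Spred1 1443652_x_at from -0.11 to 0.14, Spred1 1445228_at from -0.04 to 0.11 and Rasal2 1444671_at from -0.15 to 0.06. Over all probe sets, same-numbered arrays did not deviate together (correlations of -0.05, -0.07 and 0.03). Whether they share a preparation was not tested. With the replicate block, 10 member probe sets and 23 list genes were called, against 11.9% of all probe sets and 14.8% of all genes.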
